A study of Mus musculus with 563 samples.

Results

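A set of 9 adhesion genes of hematopoietic stem cells (HSCs) was chosen by name: Selp and Selplg, the integrin chains Itga6, Itga4 and Itgb1, the immunoglobulin family genes Jam2, Alcam and Esam, and the tetraspanin Cd9. The choice was made with earlier results of these data known. They are 9 of 46041 nuclear gene entries in the count tables. HSCs were sorted one by one from the bone marrow of young and old Gfp-Lc3 mice at steady state and sequenced with Smart-seq2, a plate method that reads whole transcripts. Every group carried the Gfp-Lc3 transgene, in which a green fluorescent protein is joined to the autophagosome protein LC3. The 4 groups were young HSCs and old HSCs labelled LO, MID and HI, and what these names rank is not stated in the labels. Neither the promoter of the transgene, nor the ages beyond young and old, nor the surface markers of the sort are given, so whether any of these 9 proteins helped to select the cells is not known.

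P-selectin, the product of Selp, is a lectin kept in storage granules of platelets and endothelial cells and brought to the surface on activation, where it lets passing leukocytes roll by holding their ligand PSGL-1, the product of Selplg. Integrins are pairs of chains that fasten cells to matrix and to other cells: in HSCs Itgb1 pairs with Itga6 to hold laminins and with Itga4 to hold VCAM-1 and fibronectin. JAM-B (Jam2), ALCAM and ESAM join cells through immunoglobulin domains, and CD9 gathers integrins into membrane clusters.

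The files held 563 cells in 2 count tables, and 533 were kept. The first table held 63 young, 65 LO, 68 MID and 68 HI cells, and the second 71, 71, 66 and 61. Median depth was 254723 to 340529 nuclear gene reads per kept cell over the 4 groups. Levels are given as CPM, reads per 1000000 nuclear gene reads, after adding up all kept cells that share a group and a table. The mice behind the cells are not named and cells are not replicates, so each group was counted as 1 sample, no difference between groups was tested, and the values of both tables are shown. Intervals cover counting error only, of reads for levels and of cells for shares, and not the spread between mice. Reads carry no molecular identifiers, so copies of 1 molecule can count as separate reads. The intervals on reads may therefore be too narrow. The X-inactivation RNA Xist had 20 or more reads in all 71 young cells of the second table, where no young cell had over 3 Y-linked reads. Of the 63 young cells of the first table, 57 had 20 or more Y-linked reads, and so did most of the old cells. The young cells therefore came from more than 1 mouse, divided largely by table. In the second table, sex-linked reads and age therefore cannot be told apart. As a check of the label, all 12 HSC markers were read in every group, with summed levels of 3462 to 4491 CPM. Cdh5, the defining cadherin of endothelium, had 0 to 4 reads per group. The summed level of 10 endothelial markers was nevertheless higher in old than in young cells, as given below.

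RefSeq promoters on the GRCm38.p6 build were found for 5 of the 9 genes (Selp, Itga4, Cd9, Itgb1 and Alcam). The 250 bases before the start are shown for Selp, the gene with the highest difference between old and young cells, and for Itga4, the one with the lowest. Both are on the plus strand, at chr1:164115014-164115263 and chr2:79255176-79255425, and the capitals mark the motif matches described next.
Selp: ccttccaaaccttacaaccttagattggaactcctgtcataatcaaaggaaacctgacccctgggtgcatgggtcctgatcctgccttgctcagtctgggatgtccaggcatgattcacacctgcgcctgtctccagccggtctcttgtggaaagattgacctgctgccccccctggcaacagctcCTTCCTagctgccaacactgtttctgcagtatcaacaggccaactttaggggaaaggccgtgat
Itga4: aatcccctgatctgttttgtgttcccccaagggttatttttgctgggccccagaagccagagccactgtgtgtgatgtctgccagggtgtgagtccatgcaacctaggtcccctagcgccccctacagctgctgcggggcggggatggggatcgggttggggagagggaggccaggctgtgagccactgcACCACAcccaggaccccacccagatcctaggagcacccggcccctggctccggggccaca

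Short motifs of blood cell factors were searched on both strands, GATAA for the GATA family, AGGAAG for the ETS family and TGTGGT for the RUNX family. None of them overlapped another in these windows. The Selp window holds 1 AGGAAG, read on the opposite strand and starting 64 bases before the start. The same motif occurs 2 times in the Itgb1 window, once each in those of Cd9 and Alcam, and not in that of Itga4, which holds 1 TGTGGT on the opposite strand. Among 32851 promoters, 29.5% hold AGGAAG, 22.6% GATAA and 14% TGTGGT in the same window, so none of these matches is rare. No GATAA was found in the 5 windows. By the GENCODE M21 gene models, the Alcam window lies within the gene and the Cd9 window overlaps its first bases, so these are not wholly upstream. The Selp window has 53.6% G and C, against 61.6% to 69.2% in the other 4 (69.2% in the Alcam window) and a median of 52.4% over all promoters.

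Selp showed the widest gap between old and young cells. It was at 37.7 and 12.03 CPM in young cells of the first and second table. The LO cells had 257 and 265 CPM, the MID cells 184 and 203.5, and the HI cells 150.1 and 162. Each of the 6 old sets was above both young sets. The log2 difference of old minus young (log2 of CPM plus 1, old being the mean of LO, MID and HI) was 3.19, with 2.35 in the first table and 4.02 in the second. Selp (ENSMUSG00000026580) lies on chromosome 1 from 164115264 to 164150026 in GRCm38. Its reads numbered 1005 in young cells (95% Poisson interval 944 to 1069). The LO cells had 10228, the MID cells 7855 and the HI cells 7720. A pair of noncoding genes on the opposite strand had 251 and 296 reads, against 26808 of Selp in all.

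In young cells these reads came from few cells. The median young cell had 0 CPM in each table, and a single cell of the first table, at 532 CPM, held 35.5% of all young Selp reads. Without the cell with the most reads in each set, the difference was 3.78. Each cell was then thinned to 100000 reads, which left 59 young, 57 LO, 65 MID and 65 HI cells in the first table, and 69, 66, 62 and 58 in the second. A Selp read was found in 18 thinned young cells (14.1%, exact Clopper-Pearson interval 8.55% to 21.3%, and 15.97% as the mean over all possible draws). The share was 15.3% in the first and 13.04% in the second table, so it was close between the tables although the young level was not. The LO share was 89.4% (110 cells, 82.6% to 94.3%), the MID share 86.6% and the HI share 83.7%. Without thinning, shares were 23.1% in young cells, 88.2% in LO, 87.3% in MID and 92.2% in HI. With at least 5 reads asked for, 7.81% of young and 67.5% to 79.7% of old cells counted.

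**Figure D1:**
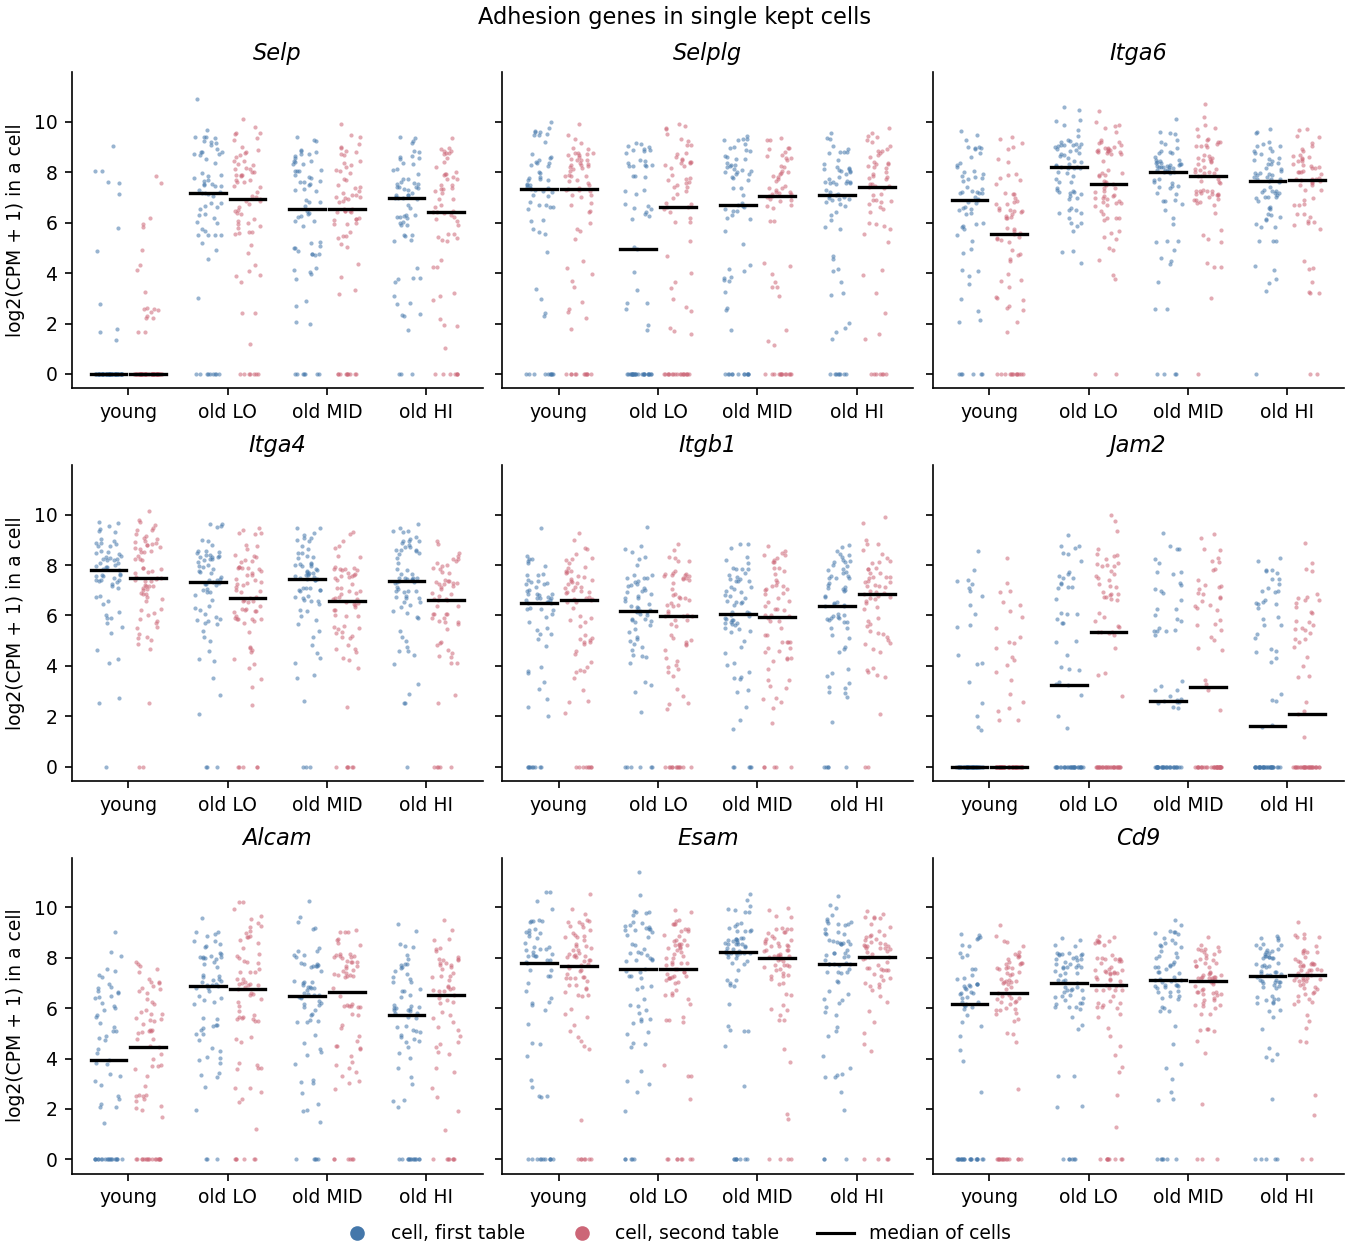
Level of each gene in single kept cells, as log2(CPM + 1), by group and count table, with a black bar at the median cell. The median young cell is at 0 for Selp and Jam2 in both tables, while the median old cell is above 0 for both genes in every group.

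Selplg (ENSMUSG00000048163, chromosome 5, 113818536 to 113832644), which encodes the ligand PSGL-1, did not follow Selp. It was at 212 and 231 CPM in young cells, and at 153 to 253 CPM in the 6 old sets, a range that holds both young values. The difference was -0.21 (-0.26 and -0.16). Among thinned cells, the share with a read was 78.9% in young cells. The LO share was lower, 68.3%, the MID share 77.2% and the HI share 84.6%.

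Sele, which encodes the endothelial E-selectin, had 0 reads in each group, which allows up to 0.0716 CPM in young cells and a read in up to 2.34% of them, taking 3 reads or 3 cells as the limit of a count of 0. It did not pass the level filter, which asked for 10 CPM on average and a read in 10% of cells.

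Of the integrin chains, Itga6 (ENSMUSG00000027111, chromosome 2, 71745616 to 71858416) was higher in old cells. Young cells had 160.3 and 97.6 CPM. LO cells had 349 and 306, MID cells 238 and 334, and HI cells 228 and 211. The 6 old sets lay above both young sets. The difference was 1.14, with 0.76 in the first and 1.53 in the second table. Thinned shares were 79.7% in young cells, 99.2% in LO, 95.3% in MID and 96.7% in HI. Itga6 encodes CD49f, a surface marker of HSCs.

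Itga4 (ENSMUSG00000027009, chromosome 2, 79255426 to 79333123), which encodes CD49d, went the other way. Its young level was 252 and 259 CPM. The first table had 188, 191 and 196 CPM from LO to HI, and the second 141.8, 137.3 and 131.7. All 6 old sets were below both young sets, by a mean log2 difference of -0.65 (-0.39 and -0.92). Old levels were lower in the second table than in the first in each old group, while the young levels were close. Its share was 98.4% in young cells and 90.6% to 92.7% in the old groups, and the mean CPM of cells with a read was 278 in young and 188 in old cells. Itga4 overlaps Cerkl on the opposite strand, which had 1812 reads against 31891 of Itga4 over all kept cells.

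Itgb1 (ENSMUSG00000025809, chromosome 8, 128685654 to 128733200), the chain that both of these can pair with, was nearly level with age. It was at 100.7 and 114.6 CPM in young cells and between 96.05 and 193.5 CPM in the old sets. The difference was 0.12 (0.05 and 0.20). Against young cells, LO differed by -0.10, MID by -0.08 and HI by 0.44. These 3 comparisons share the young cells.

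Jam2 (ENSMUSG00000053062, chromosome 16, 84774123 to 84825928) was higher in old cells, and many old cells still had no read of it. Young cells had 26.4 and 18.98 CPM. LO cells had 75.99 and 107.9, MID cells 63.7 and 82.3, and HI cells 54.7 and 39.8. The old sets again lay above both young sets, with a difference of 1.61 (1.27 and 1.96). A Jam2 read was found in 35 thinned young cells (27.3%, 19.8% to 35.9%) and in 56.9% of LO, 51.97% of MID and 46.3% of HI cells. Jam3, whose product JAM-C is a binding partner of JAM-B, was at 52.4 and 47.9 CPM in young cells and between 16.8 and 37.6 CPM in the old sets. Its difference was -0.91 (-1.12 and -0.69), opposite in sign to that of Jam2.

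Alcam (ENSMUSG00000022636, chromosome 16, 52248996 to 52454074) was higher in old cells too. Its young level was 55.3 and 44.9 CPM. LO reached 142.5 and 205.6, MID 131.4 and 152, and HI 86.5 in the first table with a mean of 111.8 over both. All 6 old sets were above both young sets. The difference was 1.48 (1.10 and 1.85). The share of cells with a read was 61.7% in young cells. It was highest in LO, at 86.99%, followed by MID at 84.3% and HI at 79.7%.

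Esam (ENSMUSG00000001946, chromosome 9, 37528078 to 37538319) and Cd9 (ENSMUSG00000030342, chromosome 6, 125460266 to 125494791) are both known as surface markers of HSCs. Esam was at 265 CPM in young cells of each table and between 252 and 359 CPM in the old sets, a difference of 0.23 (0.27 and 0.19). Cd9 was at 92.5 and 128.4 CPM in young cells and between 142.1 and 179 CPM in the old sets. Its difference was 0.53 (0.80 and 0.27), and the old sets lay above both young sets by a small margin. Thinned shares for Cd9 were 75.8% in young and 87.8% in LO cells, and close to each other in MID (93.7%) and HI (93.5%). Gm28809, on the opposite strand to Cd9, had 834 reads against 25250.

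**Figure D2:**
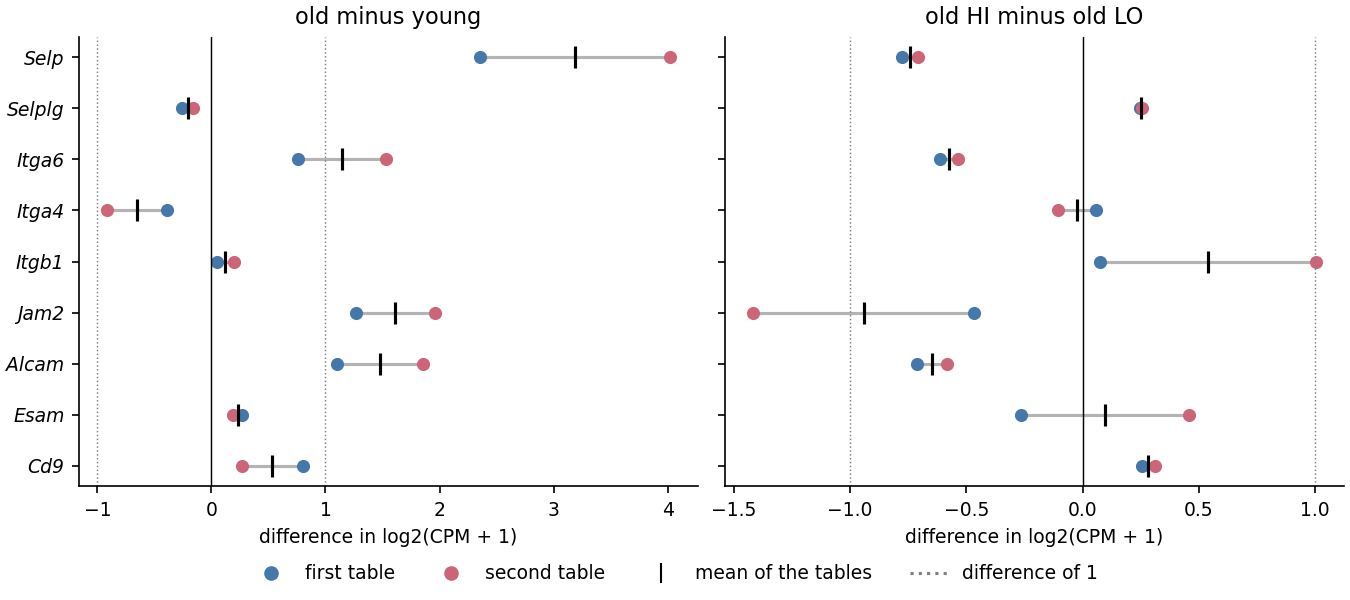
Difference in log2(CPM + 1) of each gene, old minus young on the left and old HI minus old LO on the right, with 1 point for each count table, a tick at their mean and dotted lines at a difference of 1. Selp, Jam2 and Alcam lie beyond 1 in both tables for old minus young, and Selp, Itga6, Jam2 and Alcam lie below 0 in both tables for HI minus LO.

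A size rule was used to count differences. It asked for a mean log2 difference of at least 1, the same sign and at least 0.58 (about 1.5-fold) in each table, at least 20 CPM and a read in 20% of cells in the higher group, and no single cell with over 20% of that group's reads of the gene. All 9 genes passed the level filter. By the size rule 4 of them were higher in old cells (Selp, Jam2, Alcam and Itga6) and 0 were lower. Over all 10721 genes that passed the filter, 1.65% were higher and 0.672% lower by the same rule. Asking for 1.5-fold in each table alone gave the same 4 higher and 0 lower, against 3.9% and 2.33% of all genes. The median difference of the 9 genes was 0.53, and 0.02 over all genes. Both the 9 genes and the rule were chosen with earlier results of these data known. The shares over all genes are thus given for scale, and the set was not tested against them. In the first table alone Itga6 did not meet the rule. With cells of at least 20 Y-linked reads in that table, the differences were 2.29 for Selp, 1.28 for Jam2, 1.01 for Alcam and 0.73 for Itga6.

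The 4 higher genes differed in how their reads were spread over cells. For Selp the share of thinned cells with a read was 6.16 times as large in old as in young cells, and the mean CPM of cells with a read was 1.73 times as large (128.3 in young, 222 in old). For Jam2 both factors were close, at 1.89 for the share and 1.75 for the level. Alcam and Itga6 were already read in most young cells, and the level factor was the larger: 1.36 and 2.40 for Alcam, 1.22 and 1.68 for Itga6. This split depends on counting a cell from 1 read. From 5 reads, the share with Alcam was 32.8% in young cells and 56.1% to 67.5% in the old groups, and that with Itga6 60.9% and 84.3% to 91.9%. The median CPM of cells with a read gave factors of 2.15, 1.8, 2.4 and 2.0 for Selp, Jam2, Alcam and Itga6.

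**Figure D3:**
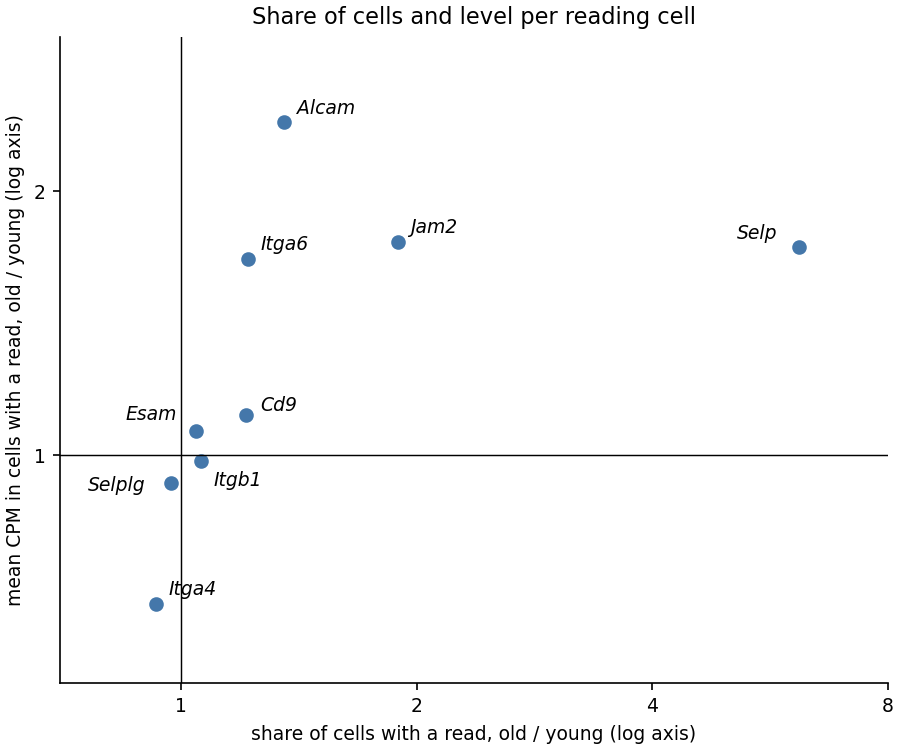
Ratio of old to young cells for the share of thinned cells with a read (horizontal, log axis) and for the mean CPM of the cells with a read (vertical, log axis), 1 point for each gene. Selp lies far to the right at a share ratio of 6.16, Alcam is highest at a level ratio of 2.40, and Itga4 is lowest at 0.68.

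Compared per kilobase of exons, the order of the genes differed between young and old cells. In young cells Esam was highest at 92.3 CPM per kilobase, followed by Cd9 at 54.03, Selplg at 51.8, Itgb1 at 26.4, Itga4 at 18.3, Itga6 at 14.3, Alcam at 7.04, Selp at 5.64 and Jam2 at 3.75. In old cells Esam at 108.3 and Cd9 at 77.4 still led, and Selp came next at 46.1, beside Selplg at 44.9. Then came Itga6 at 30.7, Itgb1 at 28.8, Alcam at 20.01, Itga4 at 11.8 and Jam2 at 11.7. In young cells the tables' values overlapped for Cd9 and Selplg, for Alcam and Selp, and for Selp and Jam2. In old cells the ranges over the 6 sets overlapped for every pair of neighbours from Selp down to Jam2. Genes further apart could be told from each other: Selp lay above Alcam, Itga4 and Jam2 in all 6 old sets.

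Counted per thinned cell, more of the 9 genes were read in old cells. The median young cell had a read of 6 of them (range 3 to 9), and the median cell of each old group of 8. At least 7 were read in 36.7% of young cells (35.6% and 37.7% in the tables) and in 84.3% to 86.99% of the cells of each old group. The mean of this count is fixed by the shares of the single genes, so it is not a further result. The Selp share differed most, at 14.1% of young and 86.6% of old thinned cells. No background was set beside this count.

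Old HI and old LO cells were compared next. Of the 9 genes, 0 met the size rule as higher and 0 as lower, against 2.48% and 0.784% of all genes tested. By the 1.5-fold rule, 0 were higher and 2, Selp and Alcam, were lower, against 4.84% and 3.29% of all genes. Alcam passed that rule with 0.582 in the second table, just past its limit of 0.58. The median difference of HI minus LO was -0.02 over the 9 genes and 0.02 over all genes.

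The 4 genes that were higher in old cells were all lower in HI than in LO cells in both tables. Selp differed by -0.74 (-0.78 and -0.71), Alcam by -0.65 (-0.71 and -0.58), Itga6 by -0.57 (-0.61 and -0.53) and Jam2 by -0.94 (-0.47 and -1.42). MID lay between LO and HI in the mean of the tables for each of the 4. Both comparisons use the LO and HI cells, so they are not independent of each other. Itgb1 was the gene furthest in the other direction, at 0.54, but this came from the second table, where it was at 96.05 CPM in LO and 193.5 in HI cells. In the first table the difference was 0.08.

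HI cells held more cells with reads of the G2 and M phases of the cell cycle than the other groups. At least 8 of 30 such genes were read in 42 thinned HI cells (34.1%), 10 MID (7.87%), 5 LO (4.07%) and 17 young cells (13.3%). The proliferation gene Mki67 had 140.1 CPM in LO cells against 703 in HI, and HI minus LO was 2.06 (1.23 and 2.89). Within HI, Alcam was at 61.9 CPM in these cycling cells and 138.6 in the others, and Itga6 at 156 and 268.5. Selp was at 128.1 and 173, Jam2 at 36.2 and 48.3. In the first table Jam2 was nearly level, at 47.2 and 48.5. Esam, at 247.1 and 340.6, and Itga4, at 132.4 and 194.2, were also lower in cycling cells of both tables. Itgb1 was nearly level, at 145.7 and 146.7. Selplg and Cd9 were higher in cycling HI cells, at 235 against 179 and at 201 against 147. Without the cycling cells of every group, HI minus LO was -0.71 for Selp, -0.84 for Jam2, -0.45 for Alcam, -0.35 for Itga6 and 0.67 for Itgb1, and it moved from 0.25 to 0.01 for Selplg.

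**Figure D4:**
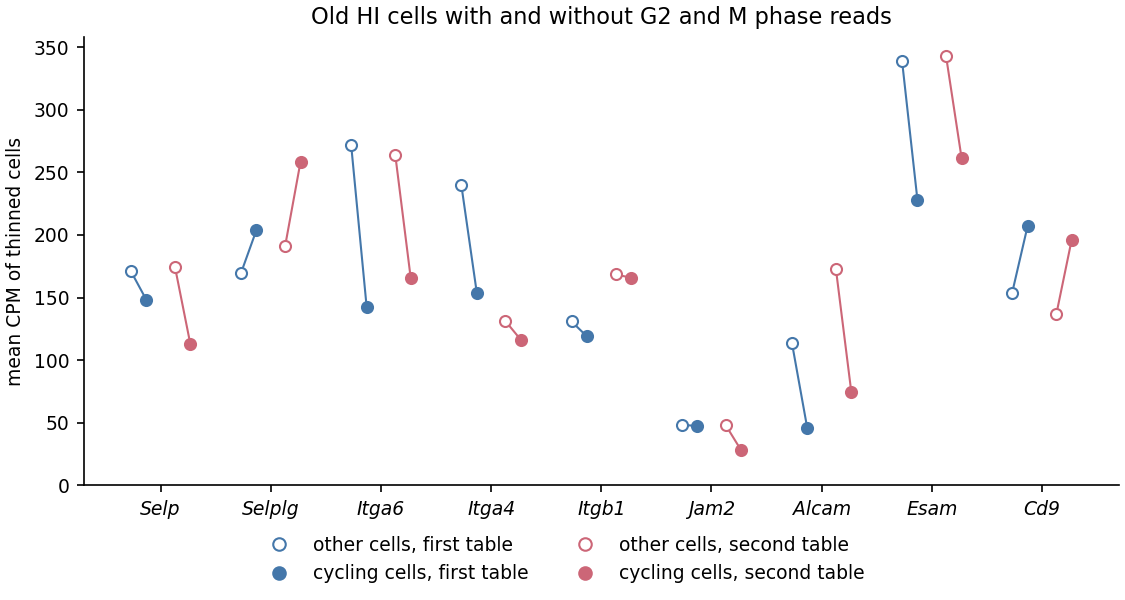
Mean CPM of thinned old HI cells with at least 8 G2 and M phase genes read (filled) and of other HI cells (open), by count table. Selplg and Cd9 are higher in the cycling cells of both tables. The other genes are lower, by a small margin for Itgb1 and, in the first table, for Jam2.

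Cell by cell, most pairs of the 9 genes hardly varied together. Spearman's rho was taken across the thinned cells within each of the 8 sets of group and table, with 57 to 69 cells each, and averaged. Over the 36 pairs the mean rho had a median of -0.007 and ranged from -0.063 to 0.206. Cells of a set share a count table, depth was set equal, and in sparse counts such values are a description only. Selp and Jam2 were the highest pair, with a rho of 0.206 (0.076 to 0.466 over the sets) and above 0 in each of the 8 sets. Jam2 and Alcam followed at 0.148, above 0 in 7 sets. The integrin chains that can form pairs showed little: 0.076 for Itga4 and Itgb1, and -0.022 for Itga6 and Itgb1. Selp and its ligand gene Selplg were at -0.028.

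Co-detection was counted in the same cells. In young cells 10 of the 18 with a Selp read also had a Jam2 read (55.6%), against 22.7% of the 110 without. That is 2.04 times the share that 2 independent genes would give, and 1.37 times without thinning. In old cells both were read in 179 of 373, and 55.4% of Selp-reading against 28% of the 50 other cells had Jam2, a ratio of 1.07. Selp and Alcam were read together in 15 young cells, 1.35 times the independent share and 1.10 times without thinning. Itga6 and Itgb1 had ratios of 1.01 in young and 0.999 in old cells. These ratios stay near 1 wherever both genes are read in most cells.

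**Figure D5:**
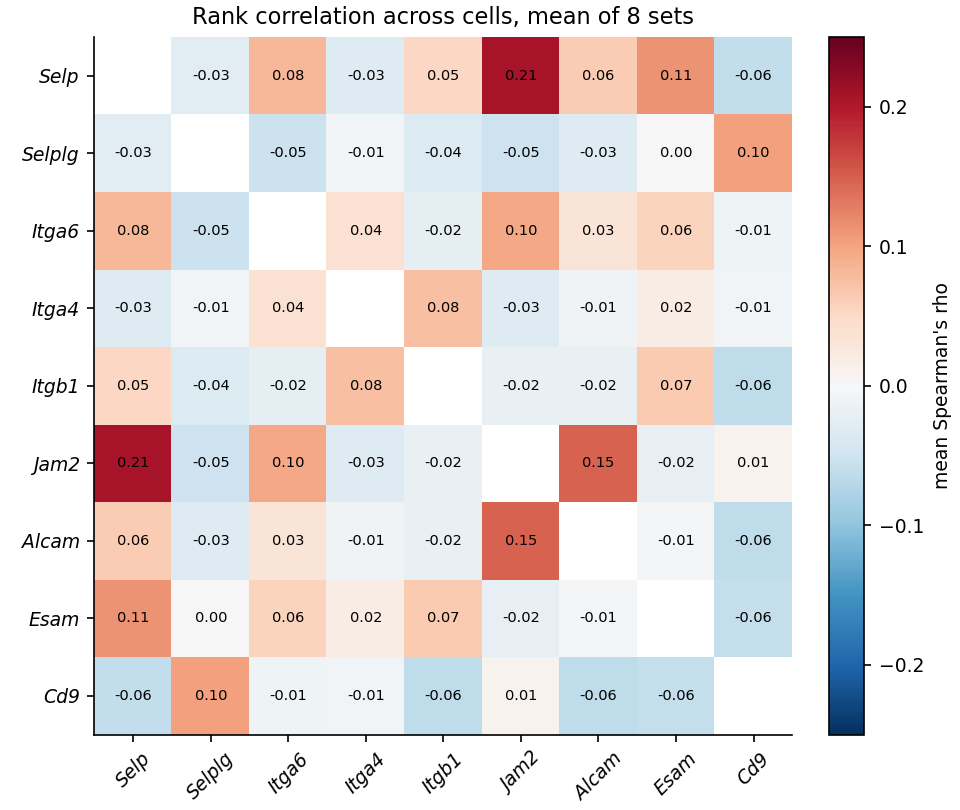
Spearman's rho between each pair of the 9 genes across thinned cells, averaged over the 8 sets of group and count table (color scale from -0.25 to 0.25). The pair of Selp and Jam2 is darkest at 0.21, and most other pairs lie near 0.

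The genes most like Selp across cells were ranked over 9868 protein-coding genes outside the 9, by the same mean rho. They were C530008M17Rik at 0.211, Sbspon at 0.197, Vwf at 0.184, Rdh10 at 0.184 and Clca3a1 at 0.179. The median over all ranked genes was 0.016 and the 95th percentile 0.095. Of the 9 genes, which were left out of this ranking, Jam2 would have ranked 2 for Selp at 0.206. Esam, at 0.113, was also above the 95th percentile, and the remaining ones were below it. For Jam2, Selp would have ranked 6 and Alcam 35. Without thinning, C530008M17Rik ranked 2, Clca3a1 8, Rdh10 23 and Sbspon 37. Vwf ranked lower still, at a rho of 0.141, and Skiv2l ranked 1, so most of this order depends on thinning. Vwf encodes von Willebrand factor, which is stored in the same granules as P-selectin in platelets and endothelium. Its rho with Selp was 0.25 averaged over old sets and -0.004 over young sets. Vwf and Sbspon also led for Jam2, at 0.247 and 0.243, and Vwf was second for Itga6, at 0.181 after Smim14 at 0.182. Alcam was most like Ifitm1 and Itm2b (0.232 and 0.202), Cd9 most like Ubb and Aspm (0.202 and 0.190), and Selplg most like Arhgef39 and Oip5 (0.237 and 0.193). Aspm and Oip5 act in cell division. For Itga4 the leading genes were Ctla2a and Gas8, for Itgb1 Vps26b and Eftud2, and for Esam Ube2f and Slc25a45, all between 0.164 and 0.178.

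Platelet and endothelial genes were set beside Selp, since both cell types are known to make it. The 15 megakaryocyte and platelet markers summed to 1291 and 1320 CPM in young cells and to between 1843 and 2363 CPM in the old sets, with Gp6 at 0 reads in young, LO and MID cells. Most of the higher old sum came from Vwf, Itgb3 (65.7 CPM in young, 348 in old cells) and Itga2b (68.7 and 173). Of the 12 markers that passed the level filter, 3 were higher and 0 lower by the size rule, against 1.65% and 0.672% of all genes. Their median difference was 0.87, and 11 were above 0, against a median of 0.02 and 52.8% above 0 over all genes. Vwf had 105.2 CPM in young cells against 401 in old, with a difference of 1.98 (1.45 and 2.51). Pf4, a platelet granule chemokine, was at 8.78 and 14.2 CPM, with differences of opposite sign in the tables (-0.24 and 1.84). Reads of 3 or more of them were found in 96.1% of thinned young and 99.2% to 100% of old cells. Pf4 was read in 15.6% to 22.8% of the thinned cells of each group. The part of this list in the Selp difference was not tested.

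Markers of multipotent progenitors, the cells that HSCs give rise to, were lower in old cells. Their 8 genes summed to 711 and 803 CPM in young sets and to 427 to 611 CPM in old sets, and the share of thinned cells with reads of 3 or more was 49.2% in young cells and 21.1% to 27.6% in the old groups. Of the 4 that passed the level filter, 0 were higher and 2 lower by the size rule, with a median of -0.97. Over all genes tested, 1.65% were higher and 0.672% lower, with a median of 0.02. Their part in the differences between old and young cells was not tested.

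The 10 endothelial markers summed to 44.7 and 55.4 CPM in young cells and to between 95.6 and 367 CPM in the old sets. Most of that sum was Cldn5, named after its values were seen, at 28.9 CPM in young cells against 192 in old ones. Kdr, the VEGF receptor of endothelium, was at 7.72 and 15.5 CPM, and Cdh5 at no more than 0.099 CPM in any group. Of the 3 endothelial markers that passed the level filter, 1 was higher and 0 lower by the size rule, against 1.65% and 0.672% of all genes. All 3 were above 0 for old minus young, against 52.8% of all genes. Their median was 1.10 (2.03 in the first table and 0.58 in the second). Kdr, at 9.39 CPM in HI cells, passed the filter through its LO and MID levels (19.16 and 17.85 CPM). The filter itself thus favored the sign of Kdr. The part of this list in the differences was not tested. Only 2 young, 5 LO, 4 MID and 2 HI thinned cells had reads of 3 or more of its markers. Leaving out such cells therefore cannot show the part of the list. A filter left out the 31 cells with reads of 3 or more markers of 1 other cell type. These types were endothelial, stromal, erythroid, neutrophil and monocyte, B, T and NK, and mast cells, and not multipotent progenitors. Without the 31 cells, Selp differed by 3.13, Jam2 by 1.47, Alcam by 1.47 and Itga6 by 1.23 between old and young cells.

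Among the other adhesion genes listed, 61 passed the level filter, and 4 were higher and 0 lower in old cells by the size rule. The shares over all genes were 1.65% and 0.672%. The median difference of the 61 genes was 0.13, and 0.02 over all genes. The 4 were Ncam1, a neural cell adhesion molecule, at 2.45 (2.83 and 2.06), Itgb3 at 2.40 (2.55 and 2.24), Podxl, a sialomucin related to CD34, at 1.51 (0.87 and 2.16), and Itga2b at 1.37 (0.73 and 2.0). Itgb3 and Itga2b encode the chains of the platelet fibrinogen receptor. Itgb3 had 65.7 CPM in young cells, 437 in LO, 337 in MID and 272 in HI, the same order as Selp. The Ncam1 difference started from a low young level of 5.44 CPM, under the 10 CPM that the level filter asked for on average. Ncam1 reached 24.1 CPM in the LO group and 51.3 in the HI group, the opposite order of LO and HI. Of the 23 other integrin chains 8 passed the filter, and these 8 were all above 0 for old minus young (median 0.48) and below 0 for HI minus LO (median -0.45). Over all genes tested, 52.8% were above 0 for old minus young and 52.3% for HI minus LO.

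Integrin activators and linkers, and tetraspanins and partners, had medians near the 0.02 of all genes. For old minus young, the 15 of 21 integrin activators and linkers that passed the filter had a median of 0.13 with 0 past the size rule, and the 17 of 23 tetraspanins and partners 0.08 with 0. The 10 of 23 immunoglobulin and cadherin genes were at -0.18, with Ncam1 past the rule. The 11 of 14 selectin and ligand-building genes were at 0.15, with Podxl past it. By that rule 1.65% of all genes were higher in old cells. For HI minus LO, 1 of the 61 genes was higher by the size rule, Tpst1 at 1.11 (1.20 and 1.02), and 1 lower, St3gal6 at -1.02 (-0.68 and -1.37). Over all genes, 2.48% were higher and 0.784% lower by this rule, so these counts are near the background. Tpst1 encodes an enzyme that adds sulfate to tyrosines, and St3gal6 one that adds sialic acid to glycans. Tpst1 was at 23.5 CPM in LO and 51.5 in HI cells, and St3gal6 at 26.5 and 12.99.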

How the data were processed

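The deposited values are raw read counts per gene and cell in 2 tables, with 283 and 280 cells, each cell a deposited sample. Per the submitters' processing notes, mm10, STAR 2.7.3a, DESeq2 and featureCounts 2.0.0 of Subread were used, in roles not stated. The rows of unassigned reads held 75.9% of all reads (4.03% were ambiguous) and stayed out. How reads of overlapping genes were assigned, and whether strand was used, is not given in the sources used here. GENCODE M21 (GRCm38) named 45143 of 46078 gene entries, and the 37 mitochondrial genes were left out of totals.

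Kept cells had 50000 nuclear reads and 1000 nuclear genes or more and a mitochondrial share of up to 20%. This removed 30 cells. No kept cell repeated the counts of another. Counts were summed by group and table and scaled with TMM factors (edgeR 4.0.16, R 4.3.3). All else ran in Python 3.11.15 (SciPy 1.17.1, pandas 2.3.3, NumPy 2.4.6), with plots by matplotlib 3.10.9. Shares and rho used cells thinned to 100000 nuclear reads (501 of 533 kept cells). No doublet caller was run on these singly sorted cells.

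The 9 genes, the gene lists and the rules were chosen with earlier results of these data known. Text names all 9, the adhesion genes past the size rule (up to 4 in each direction), the 5 genes most like Selp, the 2 most like each other gene, and Vwf, Pf4, Cdh5, Kdr, Sele, Jam3, Itgb3, Mki67 and Xist. A further gene of this rule is not reported here. Cldn5, Gp6, Prtn3, Skiv2l and the overlapping genes Cerkl and Gm28809 were named after their values were seen. Marker lists of stromal, erythroid, neutrophil and monocyte, B, T and NK, mast and multipotent progenitor cells were also summed: they lay between 0.414 and 60.1 CPM in each set for mast and for T and NK cells, at up to 41.8 for stromal, 33.3 for erythroid and 90.4 for B cells. Those of neutrophils and monocytes lay at 238 and 236 in young and 405 to 577 in old sets, mostly from Prtn3. The count and ranking steps were tested on simulated data.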

Additional observations from a re-analysis of the deposited data

How the results depend on the processing

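Alternatives were median-ratio size factors (DESeq2 1.42.0), no composition factors, pseudocounts of 0.1 and 10 CPM, no or a stricter level filter, a mean over cells, thinned cells, deeper cells, each table alone, cells with Y-linked reads in the first table, no cycling cells, and no top cell. Old against young, 4 genes were higher and 0 lower under each, except that Itga6 missed the rule in the first table alone, where the difference was 0.76, and with its Y-linked cells (0.73). For HI minus LO, main counts of 0 higher and 0 lower became 1 higher (Itgb1) in the second table alone, and 1 lower (Jam2) as a mean over cells, with thinned cells and in the second table alone. Signs changed only for Itga4 (5 of 15 alternatives) and Esam (2 of 15) in HI minus LO, both near 0. Selp ranged from 2.29 to 4.02 for old minus young and from -0.83 to -0.55 for HI minus LO. A planned filter of cells with 3 markers of another type, megakaryocytes included, was not run, since 495 of 533 cells carried them. The filter without that list, chosen after seeing the data, took its place. Neither filter counted multipotent progenitor markers. No paired analysis was possible because the numbers in the labels count single cells, which pair no animals across groups. Shares moved with depth: that of Selp in young cells was 13.4% at 50000 reads and 21.9% at 200000. In the old groups it was 78.3% to 85.3% and 89.3% to 93.75%. Over the single values (differences, shares, co-detection ratios and a rho), 298 alternatives stayed within the limits set around the main value and 159 moved outside. With the animals unnamed the spread between mice is unknown.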
